A study of Homo sapiens with 6 samples.

Results

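The genes described here handle glutamine, glutamate and the substrates of the malate-aspartate shuttle. They are the 9 genes *SLC38A1*, *GLUL*, *GLUD1*, *GOT1*, *GOT2*, *MDH1*, *MDH2*, *IDH1* and *IDH2*, found by their names among the 30015 genes of the deposited table. RNA was sequenced from HMV-II cells, a human vaginal melanoma line, in 3 Vector libraries and 3 shEZH2 libraries. Vector cells carried a scrambled shRNA and are labelled WT, and shEZH2 cells carried an shRNA against *EZH2*, which encodes the methyltransferase subunit of PRC2. Both are puromycin-selected lines made with lentivirus, and the labels give no other treatment and no time. The knockdown group carries a single shRNA, headed sh1 in the table, so an effect of that shRNA apart from *EZH2* cannot be told apart from the knockdown. No source says that the replicates came from separate cultures, so the p-values measure only the spread between these libraries, which may be technical.

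Glutamine is taken up by neutral amino acid carriers such as SLC38A1 and is deaminated to glutamate, while GLUL, glutamine synthetase, makes it again from glutamate. Glutamate becomes alpha-ketoglutarate either through GLUD1, the mitochondrial glutamate dehydrogenase, or through aminotransferases such as GOT1 in the cytosol and GOT2 in mitochondria, which also make aspartate. Together with the malate dehydrogenases MDH1 (cytosol) and MDH2 (mitochondria), they form the malate-aspartate shuttle, which carries the reducing power of cytosolic NADH into mitochondria. IDH1 in the cytosol and peroxisomes and IDH2 in mitochondria interconvert isocitrate and alpha-ketoglutarate with NADP, and so supply NADPH. Glutamate is also a building block of glutathione, which counters ferroptosis, the form of cell death that the study examined.

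Values are normalized counts, that is, reads per gene divided by one size factor per library. Libraries held 13400290 to 15923029 reads in the Vector group and 16129171 to 19128939 in the shEZH2 group. The targeted gene *EZH2* had 483, 437 and 552 normalized counts across Vector replicates 1, 2 and 3 and 237, 247 and 225 in the shEZH2 replicates, a log2 fold change of -1.04 (adjusted p = 0.0142 in limma). Melanocyte lineage markers were present in both groups, and all 7 listed passed the minimum of 10 normalized counts, with *PMEL* and *SOX10* the most abundant. Of these 7, *MLANA* and *TYRP1* rose and *TYR* fell, and *MLANA* did not pass without Vector replicate 2. Of the 12 markers of other cell types, 9 were in the table and 6 of these stayed under 15 normalized counts in every library, and the 9 summed to 601 to 624 in Vector and 586 to 656 in shEZH2 libraries. Among them *LUM* rose, and its part in the results below was not tested. Vector replicate 2 stood apart from the other Vector libraries, and each call that rests on it is given with and without it. Medians, directions and overlaps counted over lists of genes were not repeated without it.

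The short stretches shown here come from the RefSeq promoter table (GRCh38.p14, 250 bases before to 50 after each start site), which held 13 windows for the 9 genes. They belong to *IDH1* and *MDH1*, members called in shEZH2 cells below, and capitals mark a GC box (GGGCGG or its reverse complement CCGCCC), a sequence bound by SP and KLF factors, or a CCAAT box (CCAAT or its reverse complement ATTGG), bound by NF-Y. Positions count back from the base before the start site, at -1. The *IDH1* window at the start site 208255071 held GC boxes beginning at -229, -138 and -91 and CCAAT boxes at -121 and -107, and both stretches from it run 5′ to 3′ on the minus strand of chromosome 2.
IDH1, chr2:208255187-208255214, positions -143 to -116: tgactCCGCCCatcccacgggaATTGGc
IDH1, chr2:208255154-208255183, positions -112 to -83: tggcgATTGGaggcgtgtcggGGGCGGggc
MDH1, chr2:63588735-63588764 on the plus strand, positions -228 to -199: ttgtcgtcctCCAATcacaggggctcatcc
Of all 35116 windows of 300 bases in that table, 45.0% held a GC box and 34.6% a CCAAT box on either strand. Among the 13 windows of the 9 genes, 8 held a GC box and 4 a CCAAT box. Counted by gene, 6 of the 9 had a GC box in at least 1 window and 4 had a CCAAT box. The E-box CACGTG, held by 7.26% of all windows, was in none of the 13. Of the 13 windows, 10 lie wholly inside the gene as the deposited table draws it, those of *IDH1*, *MDH1* and *IDH2* included, and the *IDH2* window held none of these motifs. The other *IDH1* window, at the start site 208254458, held 2 GC boxes and no CCAAT box. The other *MDH1* window, at the start site 63589146, held neither motif. A match is a run of letters and says nothing of binding.

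The plainest difference lay between the NADP-dependent isocitrate dehydrogenases, which moved in opposite directions. *IDH2*, the mitochondrial enzyme, rose and *IDH1*, the cytosolic enzyme, fell in shEZH2 cells. In limma the *IDH1* fall had an adjusted p of 0.122, and 4 of 16 alternative fits no longer called it. The *IDH2* rise lost its call in 1 of 16. *MDH1*, the cytosolic malate dehydrogenase, also rose, but the size of its change rested on Vector replicate 2. The other 5 genes tested did not pass the threshold, and *SLC38A1* was close to silent.

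The groups were compared with limma over 15251 genes. A gene was called where the unadjusted p was under 0.05 and the change exceeded 1.5-fold in either direction, the threshold of the study's methods. Of the 9 genes, 8 reached the minimum of 10 normalized counts, and 3 were called, 2 higher and 1 lower, where 14.6% of all genes tested were called (7.55% higher and 7.07% lower). After Benjamini-Hochberg adjustment over all genes, only *IDH2* was under 0.05, where 4.12% of all genes were. In 5 of the 8 genes the groups did not overlap, against 34.8% of all genes tested, and 4 of the 8 had an unadjusted p under 0.05, against 23.2%. Without Vector replicate 2, 2 of the 8 were called, *IDH2* higher and *IDH1* lower, where 12.7% of all genes were called (7.05% higher and 5.64% lower). In that comparison 4 of the 8 had an adjusted p under 0.05, as did 18.9% of all genes. The median log2 fold change of the 8 was 0.33 and that of all genes tested 0.04. All 8 were lower in Vector replicate 2 than the mean of Vector replicates 1 and 3. Without that library their log2 fold changes were 0.61 (*IDH2*), 0.45 (*MDH1*), 0.37 (*GLUL*), 0.27 (*GOT2*), 0.03 (*MDH2*), -0.02 (*GOT1*), -0.05 (*GLUD1*) and -0.81 (*IDH1*). The median of all genes tested was then -0.0059. The list was chosen with earlier results of these data known, so these counts describe the 9 genes and nothing beyond them.

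**Figure D1:**
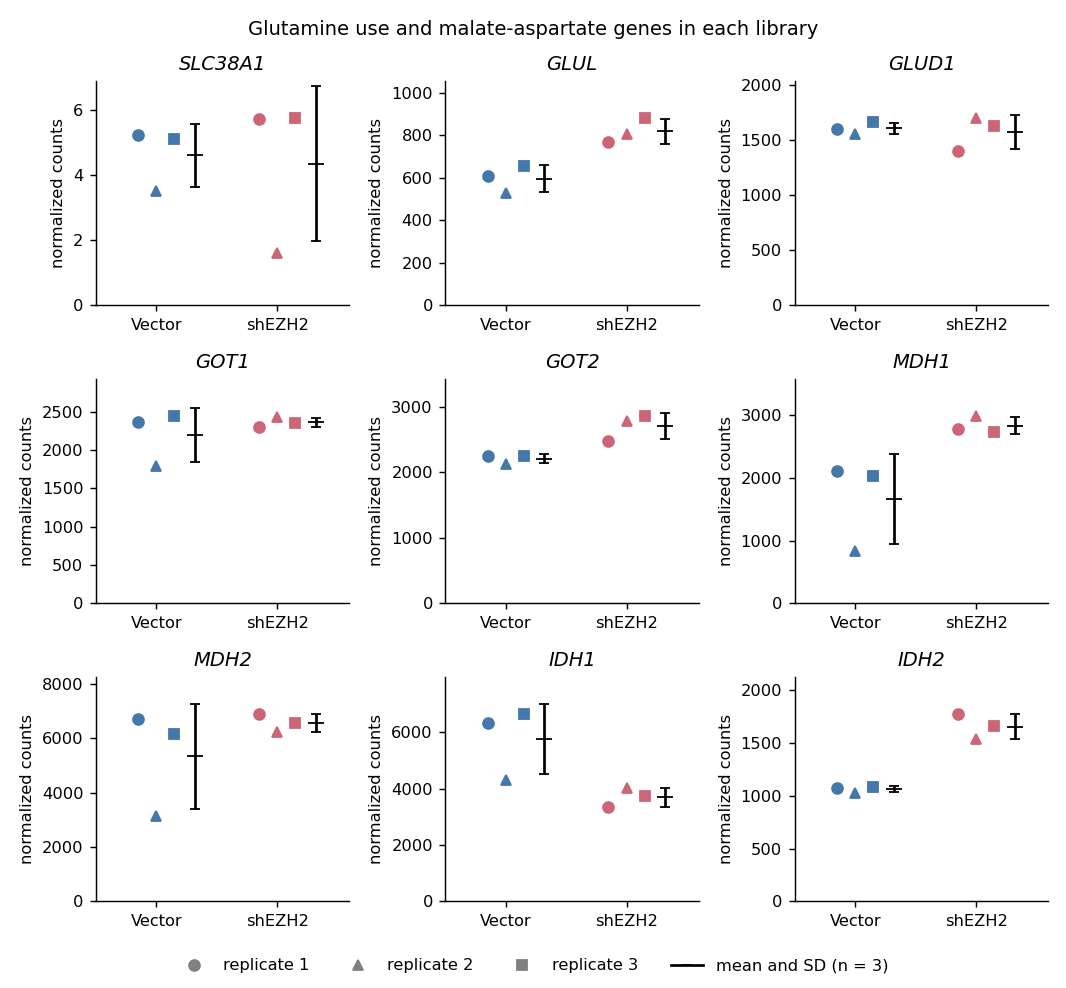
Normalized counts (y axis, from 0 in each panel) of the 9 genes in the 3 Vector and 3 shEZH2 libraries, with the mean and SD of each group (n = 3). *IDH1* sits lower and *IDH2* higher in every shEZH2 library than in any Vector library, and Vector replicate 2 (triangle) is well below the other Vector libraries in *MDH1* and *MDH2*.

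*IDH2* (ENSG00000182054) is a minus-strand gene at 90083045 to 90102504 on chromosome 15 (GRCh38, as for all genes here). Its normalized counts were 1078, 1027 and 1086 in Vector replicates 1, 2 and 3, against 1771, 1540 and 1656 in the same order of shEZH2 replicates. The groups did not overlap, and the Vector libraries were close together (1064 ± 32.2, SD, n = 3, against 1656 ± 116). This was a 1.55-fold rise, or 0.64 ± 0.12 (standard error) on the log2 scale, with an adjusted p of 0.0359 by limma. The exact two-sided permutation test gave p = 0.1, and no smaller p can be had from 3 libraries a group. Without Vector replicate 2 the log2 fold change was 0.61, but with the gene length trend removed it was 0.45, short of the fold threshold. Leaving out any of the other 5 libraries took the adjusted p past 0.05, and it ran from 2.31e-06 to 0.212 over the alternatives.

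*IDH1* (ENSG00000138413) is a minus-strand gene at 208236227 to 208266074 on chromosome 2. It had 6335, 4324 and 6644 normalized counts across Vector replicates 1, 2 and 3, against 3351, 4024 and 3726 in shEZH2 replicates 1, 2 and 3. The groups did not overlap, with Vector replicate 2 closest to the shEZH2 libraries. Vector cells averaged 5767 ± 1260 and shEZH2 cells 3700 ± 337 (SD, n = 3 each). On the log2 scale the difference was -0.62, with a 95% interval from -1.07 to -0.16 and an adjusted p of 0.122 by limma. An exact two-sided permutation test gave p = 0.1. Without Vector replicate 2 it was -0.81, with an adjusted p of 0.000151. The fall was no longer called with Vector replicate 1, Vector replicate 3 or shEZH2 replicate 1 left out, at -0.54, -0.50 and -0.55, and with TMM scaling, at -0.58. Over the alternatives its adjusted p ran from 3.08e-07 to 0.335. The antisense gene *IDH1-AS1* overlaps *IDH1* and had a mean of 9.82 normalized counts, and the strandedness of the libraries is not given in the sources used here.

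The balance between these enzymes was then compared within each library, where size factors cancel. The ratio of *IDH1* to *IDH2* normalized counts was 5.88, 4.21 and 6.12 in Vector replicates 1, 2 and 3, against 1.89, 2.61 and 2.25 in shEZH2 replicates 1, 2 and 3. Every shEZH2 library lay below every Vector library. This had to follow, as neither gene overlapped between the groups and they moved in opposite directions. The exact p of 0.1 for this ratio follows in the same way, so it adds no support to the changes of the single genes. The mean log2 ratio was 2.41 ± 0.30 in Vector and 1.16 ± 0.23 in shEZH2 cells (SD, n = 3 each), a difference of -1.26 (exact two-sided permutation test, p = 0.1, adjusted p = 0.15 over 3 pairs). With each library left out or the gene length trend removed, the difference stayed between -1.43 and -1.14. Scaled per kilobase of gene length, *IDH2* made up 24.1% ± 3.84 of the summed *IDH1* and *IDH2* level in Vector and 42.9% ± 3.96 in shEZH2 cells (SD, n = 3 each). *IDH1* thus remained the more abundant transcript in all 6 libraries.

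**Figure D2:**
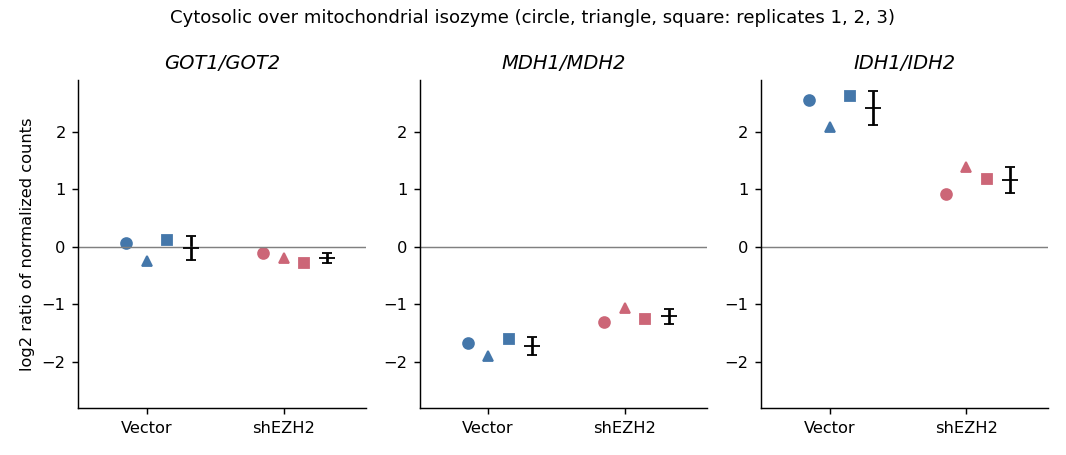
The log2 ratio of normalized counts of the cytosolic over the mitochondrial isozyme (y axis) in each library for 3 pairs, with the mean and SD of each group (n = 3). The *IDH1*/*IDH2* log2 ratio differs by -1.26 in shEZH2 libraries, the *MDH1*/*MDH2* log2 ratio by 0.51, and the *GOT1*/*GOT2* groups overlap.

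*MDH1* (ENSG00000014641), which reduces oxaloacetate to malate in the cytosol, lies on the plus strand of chromosome 2 from 63588609 to 63607197. It had 2112, 842 and 2035 normalized counts across Vector replicates 1, 2 and 3, against 2784, 2982 and 2732 in shEZH2 replicates 1, 2 and 3. All shEZH2 libraries were above all Vector libraries, and Vector replicate 2 was far below the rest of its group. The difference was 0.88 on the log2 scale, with a 95% interval from 0.10 to 1.67 and an adjusted p of 0.178 by limma. An exact two-sided permutation test gave p = 0.1. Without Vector replicate 2 it was 0.45, short of the fold threshold, with an adjusted p of 0.00563. The call was also lost with shEZH2 replicate 1, 2 or 3 left out, where the log2 fold change was 0.89, 0.84 and 0.91, and with array weights, at 0.43. Its adjusted p ran from 0.000444 to 0.382 over the alternatives. On the other strand *MDH1* overlaps *WDPCP*, at a mean of 133 normalized counts.

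*MDH2* (ENSG00000146701), its mitochondrial counterpart on chromosome 7 from 76048051 to 76067508 on the plus strand, had 6705, 3134 and 6153 normalized counts across Vector replicates 1, 2 and 3. The shEZH2 replicates had 6872, 6237 and 6555, within the range of the Vector libraries except for replicate 1. Its log2 fold change was 0.37 with a 95% interval from -0.29 to 1.03 (adjusted p = 0.448 in limma), and 0.03 without Vector replicate 2. Both malate dehydrogenase genes were low in that library, *MDH1* by 1.30 and *MDH2* by 1.03 on the log2 scale below the mean of Vector replicates 1 and 3. Only 7.61% of all genes tested lay as low as *MDH1* in this respect. That library also differed from Vector replicates 1 and 3 by a trend along gene length. On the log2 scale this trend at the length of *MDH1* was -0.06 and at that of *MDH2* -0.24, and the cause of the low values was not tested.

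The malate dehydrogenases were also compared as a ratio within each library. The *MDH1*/*MDH2* ratio was 0.315, 0.269 and 0.331 in Vector replicates 1, 2 and 3, against 0.405, 0.478 and 0.417 in shEZH2 replicates 1, 2 and 3, with no overlap. The mean log2 ratio was -1.72 ± 0.16 in Vector and -1.21 ± 0.13 in shEZH2 libraries (SD, n = 3 each), a difference of 0.51 (exact two-sided permutation test, p = 0.1, adjusted p = 0.15 over 3 pairs). It was 0.42 without Vector replicate 2.

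**Figure D3:**
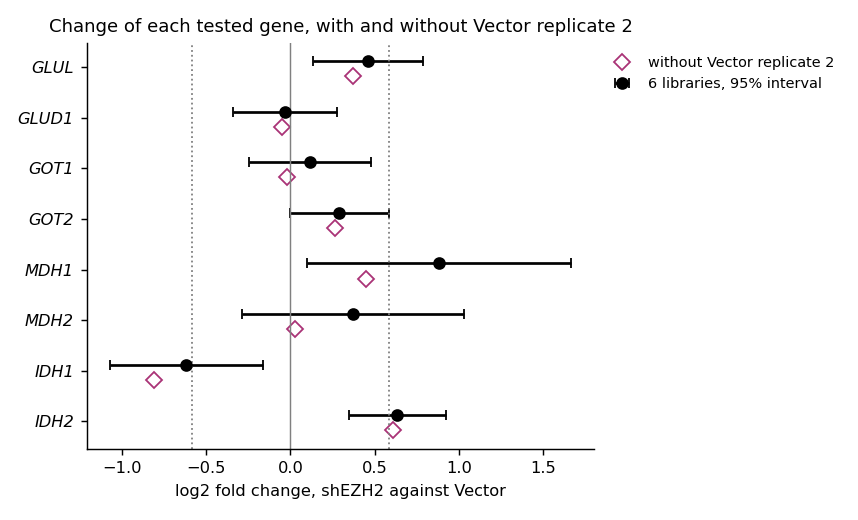
Log2 fold change of shEZH2 against Vector (x axis) for the 8 genes tested, from all 6 libraries with 95% intervals (filled points) and without Vector replicate 2 (open diamonds). Dotted lines mark a 1.5-fold change in either direction. *IDH2* and *GOT2* hardly move without that library, while *MDH1* drops from 0.88 to 0.45 and *IDH1* goes from -0.62 to -0.81.

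Neither aspartate aminotransferase passed the threshold. *GOT2* (ENSG00000125166; chromosome 16, 58707131 to 58734357, minus strand), the mitochondrial enzyme, had 2247, 2135 and 2252 normalized counts across Vector replicates 1, 2 and 3, against 2483, 2787 and 2857 in shEZH2 replicates 1, 2 and 3. The groups did not overlap, but the log2 fold change of 0.29 (95% interval -0.0048 to 0.59, adjusted p = 0.221 in limma) was short of the threshold. *GOT1* (ENSG00000120053; chromosome 10, 99396870 to 99431569, minus strand), the cytosolic enzyme, had 2362, 1793 and 2441 in Vector and 2308, 2430 and 2354 in shEZH2 replicates 1, 2 and 3. Its shEZH2 libraries lay inside the range of the Vector libraries. Its log2 fold change was 0.12 (95% interval -0.25 to 0.48, adjusted p = 0.662) and -0.02 without Vector replicate 2. The *GOT1*/*GOT2* ratio overlapped between the groups, with a difference in mean log2 ratio of -0.17 (exact two-sided permutation test, p = 0.3).

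*GLUL* (ENSG00000135821; chromosome 1, 182381704 to 182392206, minus strand) makes glutamine from glutamate and ammonia. It had 608, 527 and 655 normalized counts across Vector replicates 1, 2 and 3, against 768, 808 and 880 in shEZH2 replicates 1, 2 and 3. Every shEZH2 library was above every Vector library. Its log2 fold change of 0.46 was short of the fold threshold, with a 95% interval from 0.13 to 0.79 and an adjusted p of 0.114 by limma, and was 0.37 without Vector replicate 2. An exact two-sided permutation test gave p = 0.1.

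*GLUD1* (ENSG00000148672; chromosome 10, 87050486 to 87094866, minus strand) had 1600, 1562 and 1665 normalized counts across Vector replicates 1, 2 and 3. The shEZH2 replicates had 1404, 1700 and 1631, on both sides of the Vector libraries. Here the log2 fold change was -0.03, with a 95% interval from -0.34 to 0.28 (adjusted p = 0.897 in limma). It overlaps *SHLD2* on the other strand (mean of 464 normalized counts). Its near-copy *GLUD2* had 88.9, 90.8 and 86.5 normalized counts in Vector libraries and the pseudogene *GLUD1P3* a mean of 32.8 over all libraries, and how reads shared between them were assigned was not tested.

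*SLC38A1* (ENSG00000111371; chromosome 12, 46183063 to 46270017, minus strand), a sodium-coupled glutamine carrier, had 5, 3 and 5 reads in Vector replicates 1, 2 and 3, against 6, 2 and 6 in shEZH2 replicates 1, 2 and 3. The gene was below the minimum of the limma comparison, and an exact two-sided permutation test gave p = 1. At these counts a difference was not detectable. Other glutamine carriers were abundant. *SLC38A2*, of the same family, had 8123, 7753 and 8275 normalized counts across Vector replicates 1, 2 and 3, against 6566, 8521 and 7406 in shEZH2 replicates 1, 2 and 3, with a log2 fold change of -0.11 (adjusted p = 0.672 in limma). *SLC1A5*, the main glutamine exchanger of many tumour cells, had 2555, 2509 and 2480 in Vector and 3791, 3132 and 3350 in shEZH2 replicates. Its groups did not overlap, but the log2 fold change of 0.44 was short of the threshold (adjusted p = 0.108).

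On the scale of normalized counts per kilobase of gene length, the levels of the 9 genes spanned a wide range. In Vector cells *MDH2* (1464 ± 528, SD, n = 3) and *IDH1* (1222 ± 267) were highest and overlapped with each other. Next came *GOT1* (653 ± 105) and *GOT2* (587 ± 17.6), which overlapped, then *GLUD1* (457 ± 14.7), then *IDH2* (378 ± 11.5) and *MDH1* (333 ± 143), which overlapped. *GLUL* (66.0 ± 7.12) and *SLC38A1* (0.460 ± 0.0963) were far below. In shEZH2 cells *MDH2* (1800 ± 87.1) stood alone at the top, and *IDH1* (784 ± 71.5) overlapped with *GOT2* (719 ± 52.7), which overlapped with *GOT1* (702 ± 18.3). *IDH2* (588 ± 41.1) and *MDH1* (568 ± 26.4), which overlapped, were there above *GLUD1* (449 ± 43.9). The gene lengths are those of the table and need not match the transcripts these cells use. In these bulk libraries a change in the share of cells that express a gene and a change per cell cannot be told apart.

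The genes whose pattern over the 6 libraries was most like that of *IDH2*, the member with the smallest p, were *ARSE*, *LIMK2* and *USP5*. Their centred log2 values differed from those of *IDH2* by a root mean square of 0.04 over the 6 libraries, against a median of 0.43 over all genes tested. They were picked for the smallest values among tested genes outside the lists, so lying below the median follows from the choice.

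Other genes of glutamine use and its neighbouring pathways were taken from 7 lists. Of 72 genes listed, 68 were in the table and 58 were tested, and 6 rose and 1 fell. That is 12.1%, near the 14.6% of all genes tested. In 31 of the 58 the groups did not overlap, where 34.8% of all genes tested did not, and the median log2 fold change was 0.27, against 0.04 over all genes tested.

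Of the 5 malate-aspartate and citrate carriers, 2 rose, where 7.55% of all genes tested did, and 1 of these had an adjusted p under 0.05. *SLC25A1*, the mitochondrial citrate carrier, had 563, 433 and 475 normalized counts across Vector replicates 1, 2 and 3, against 1568, 1314 and 1425 in shEZH2 replicates 1, 2 and 3. Its log2 fold change was 1.55 (adjusted p = 0.00607 in limma) and 1.47 without Vector replicate 2. *SLC25A10*, the dicarboxylate carrier, had 87.8, 53.6 and 78.4 in Vector and 184, 117 and 125 in shEZH2 replicates. Its log2 fold change was 0.95 (adjusted p = 0.0889 in limma), 0.74 without Vector replicate 2 and 0.63 with array weights. The carriers of the shuttle itself did not pass. The malate and alpha-ketoglutarate exchanger *SLC25A11* had a log2 fold change of 0.45 (adjusted p = 0.232), and the aspartate-glutamate carriers *SLC25A12* and *SLC25A13* had 0.43 and -0.07.

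Of the 17 other enzymes of the citric acid cycle, 1 passed, against 14.6% of all genes tested. A log2 fold change above 0 was found in 15 of the 17 and in 53.5% of all genes tested, a count not repeated without Vector replicate 2. *ACO1*, cytosolic aconitase and an iron-sensing RNA-binding protein, had 241, 199 and 236 normalized counts in Vector and 455, 472 and 505 in shEZH2 replicates, a log2 fold change of 1.08 (adjusted p = 0.0123 in limma). Of the 4 malic and anaplerotic enzymes tested, 1 passed, where 14.6% of all genes tested did. *ACLY*, which splits cytosolic citrate to acetyl-CoA and oxaloacetate, had 3754, 4891 and 3834 in Vector and 6492, 7077 and 7665 in shEZH2 replicates, a log2 fold change of 0.77 (adjusted p = 0.0429). The groups did not overlap in either gene.

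**Figure D4:**
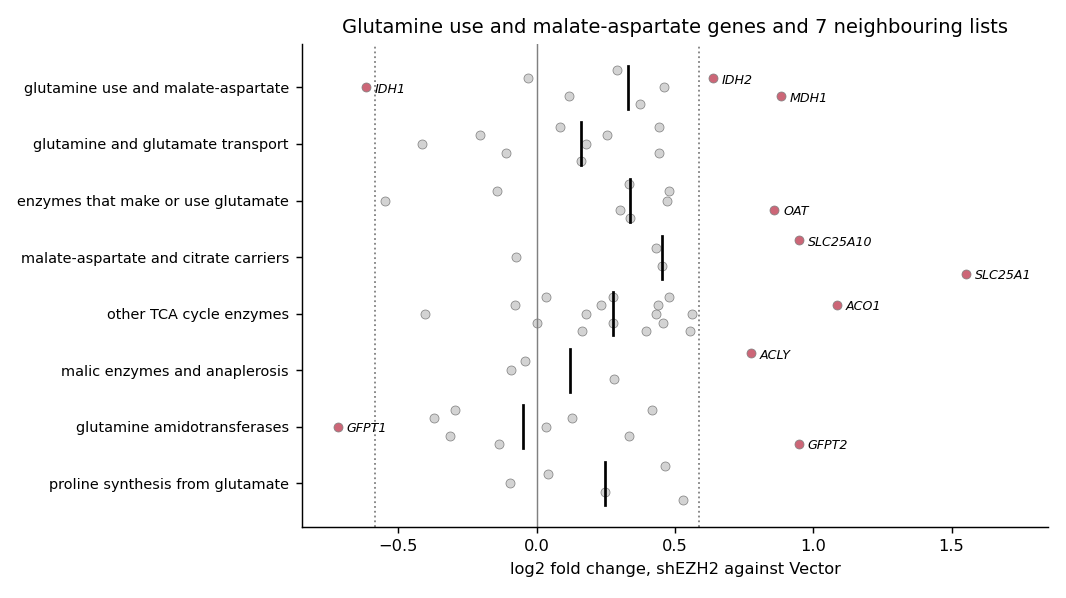
Log2 fold change of shEZH2 against Vector (x axis) for each gene tested, by list (y axis), with called genes in red and named, and the median of each list as a vertical bar. Dotted lines mark a 1.5-fold change in either direction. *SLC25A1*, at 1.55, lies farthest to the right.

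Among the 8 enzymes tested that make or use glutamate, aminotransferases among them, 1 rose, where 7.55% of all genes tested did. *OAT*, which moves an amino group between ornithine and glutamate, had 574, 382 and 656 normalized counts in Vector and 933, 1005 and 915 in shEZH2 replicates, with a log2 fold change of 0.86 (adjusted p = 0.0671 in limma) and 0.63 without Vector replicate 2. With array weights it was 0.58, short of the threshold. *GLUD2*, the second glutamate dehydrogenase, had a log2 fold change of 0.30 (adjusted p = 0.304).

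The glutamine amidotransferases, which take nitrogen from glutamine, gave 1 rise and 1 fall among 10 tested, where 14.6% of all genes tested were called. The called genes are isoforms of the first enzyme of hexosamine synthesis. *GFPT1* had 5179, 5852 and 5219 normalized counts in Vector and 2936, 3477 and 3469 in shEZH2 replicates, a log2 fold change of -0.72 (adjusted p = 0.0359 in limma). *GFPT2* had 177, 164 and 151 in Vector and 327, 287 and 337 in shEZH2 replicates, a log2 fold change of 0.95 (adjusted p = 0.02).

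Of the 9 glutamine and glutamate carriers tested, 0 passed in limma, edgeR or DESeq2, and 1, *SLC1A5*, had an unadjusted p under 0.05. Of the 5 enzymes of proline synthesis and breakdown tested, 0 passed by any of these tools and 2 had an unadjusted p under 0.05. In limma, 14.6% of all genes tested passed and 23.2% had an unadjusted p under 0.05. Without Vector replicate 2, *ALDH4A1* passed, with a log2 fold change of 0.61 in place of 0.53.

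Another 10 genes of these lists were below the minimum. They include *ASNS*, asparagine synthetase, with 0 reads in each Vector library and 1, 0 and 3 reads in shEZH2 replicates 1, 2 and 3. *PSAT1*, the aminotransferase of serine synthesis, had 0, 0 and 2 reads in Vector and 0, 0 and 1 in shEZH2 replicates, and *ME1*, the cytosolic malic enzyme that makes NADPH, had 0 in each Vector library and 0, 1 and 2 in shEZH2 replicates. A count of 0 allows up to 3 reads, so no difference was detectable at this depth in these genes.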

How the data were processed

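RNA-seq of 3 Vector and 3 shEZH2 libraries of HMV-II cells was used. Per the labels and methods, the authors assigned reads to genes using featureCounts v1.5.0-p3 and normalized them in DESeq2 1.20.0. The deposited values are signal values, reads divided by a size factor for each library. The 6 single-library columns all belong to the series, with 0 of other samples. The values of each library were 100% whole multiples of its smallest value (tolerance 0.02), so the reads could be recovered. Coordinates in the table are GRCh38, although hg19 is named in the submitters' processing notes, and the aligner and strandedness are not given in the sources used here. The deposited log2 fold changes, p-values and adjusted values of the authors' own comparison were not used, and the deposited gene length column was.

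Differences were fitted with limma 3.58.1 in R 4.3.3 (eBayes with trend) on log2(normalized count + 1), so folds of low genes are understated, over the 15251 genes whose mean reached 10 normalized counts, with Benjamini-Hochberg adjustment over all of them. Isozyme ratios were compared by an exact two-sided permutation test over 20 arrangements. The alternatives were edgeR 4.0.16 and DESeq2 1.42.0 on the recovered reads, pseudocounts of 0.1 and 5, no minimum mean, a mean of at least 50, TMM scaling, a replicate block, array weights, removal of the gene length trend by loess within each library, an adjusted p, and each library left out in turn. The edgeR and DESeq2 tests called 2277 and 2366 genes at the same threshold. The fits were tested on simulated data. The members, the 7 pathway lists and the marker lists were chosen with earlier results of these data known. Named genes are the members, *EZH2*, pathway genes called in limma, *SLC1A5* and *GLUD2*, and the 3 genes most like the member with the smallest p; *SLC38A2*, *SLC25A11*, *SLC25A12*, *SLC25A13*, *ALDH4A1*, *ASNS*, *PSAT1*, *ME1* and markers were named after their values were seen. A further gene of the rule is not reported here. Intervals cover the spread between libraries. Python 3.11.15, pandas 2.3.3, scipy 1.17.1 and matplotlib 3.10.9 were used.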

Additional observations from a re-analysis of the deposited data

How the results depend on the processing

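Of the 128 values of the 8 tested genes under the alternatives, 113 kept their direction and side of the threshold, 10 kept the direction and lost the call, and 5 turned. Most of the 113 belong to genes that were not called, where they only stayed short of the threshold. Among the called genes, *IDH2* kept its call in 15 of 16 alternatives, *IDH1* in 12 and *MDH1* in 11. Some of the 128 values could not have turned. The changed minimum means and the replicate block leave each log2 fold change as it was. Leaving out a library cannot turn a gene whose groups did not overlap. The 3 called genes became 1 when the adjusted p was required, and 1 to 2 when single libraries were left out (1 without shEZH2 replicate 1). The 5 that turned were of genes close to 0, namely *GLUD1* at 0.0024 with TMM scaling and -0.088 to 0.050 with each library left out, and *GOT1* at -0.024 with array weights, -0.031 with the gene length trend removed and -0.023 to 0.20 with each library left out. The cause was not tested. The isozyme ratios kept their direction in 21 of 21 alternatives, leaving out the block and the scaling per kilobase, which cannot turn it. For *MDH1*/*MDH2* and *IDH1*/*IDH2*, whose groups did not overlap, leaving out a library cannot turn it either. For these pairs only removal of the gene length trend could have done so. Of all genes, 2229 were called, and 624 with an adjusted p, which is stricter by construction. The count under an adjusted p of 0.05 depended more on the setting, at 629 in limma, 1644 with DESeq2, 1286 with the gene length trend removed, 7128 with array weights and 4 (without shEZH2 replicate 3) to 2875 (without Vector replicate 2) with each library left out.

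Same-numbered libraries did not deviate together in every pair (correlations of 0.28, 0.22 and -0.11 across genes), and Vector replicate 3 correlated best with shEZH2 replicate 1, so the numbers were not taken as pairs. With a replicate block, 2434 of all genes and 3 of the 8 were called, 424 genes had an adjusted p under 0.05, and the adjusted p of *IDH2* was 0.0663. For the log2 ratios of *GOT1*/*GOT2*, *MDH1*/*MDH2* and *IDH1*/*IDH2* a replicate block gives -0.17, 0.51 and -1.26, by construction the differences of the group means. At 3 libraries a group, the exact tests cannot go below 0.1.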
